A study of Mus musculus with 6 samples.

Results

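Broad unmethylated valleys were defined in the CpG methylomes of mouse LSK cells as runs of 4 or more adjacent 1 kb windows on autosomes, each with a mean methylation level below 10% over the 6 samples. Each window of a run also had to hold 3 or more CpGs and, in each of the samples, 20 or more reads. This rule gave 447 valleys, made of 2172 of the 774732 windows tested. LSK cells are bone marrow cells that lack lineage markers and carry Sca-1 and c-Kit, a fraction that contains blood stem cells and early progenitors, here sorted from femurs and tibiae. Whole-genome bisulfite sequencing was done on 3 wild-type samples (WT) and 3 samples from mice lacking Tet2 and Tet3 (Tet2/3 DKO), labelled as biological replicates. The labels name no strain, age, Cre driver or other allele, and do not say whether a sample came from 1 animal. The p-values below therefore refer to the spread between these samples. The sort cannot be checked against marker genes in a methylation table, so the cells are taken as labelled.

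Most CpGs in mammalian genomes are methylated, and CpG islands at gene starts are the main exception. In some places the unmethylated state extends over several kilobases, well past a single island. Such stretches, called valleys or canyons, are known in blood stem cells and in many other tissues, and often cover genes of transcription factors that control development. Tet2 and Tet3 oxidise 5-methylcytosine, which is a step toward its removal, while the methyltransferase Dnmt3a is known to act at the borders of such stretches in blood stem cells. Bisulfite sequencing reads 5-methylcytosine and 5-hydroxymethylcytosine alike, so a level is the sum of both. A level is also a mean over the sorted cells, and a change in a share of the cells cannot be told apart from a partial change in all of them.

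The table listed 20451903 CpGs, at a mean of 3.46 to 3.56 reads per CpG in the WT samples and 4.09 to 5.46 in the DKO samples. A single CpG is measured coarsely at this depth, but a valley held between 177 and 3613 reads per sample, with a median of 885.5. Reads are counted at each CpG that they cover. On the mitochondrial genome, a measure of how complete the conversion was, the methylated share was 1.28% ± 0.0797 (WT) and 1.71% ± 0.170 (DKO; SD, n = 3), 0.437 points apart. Differences of that size inside a valley cannot be told apart from incomplete conversion.

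The values that chose the valleys were the window levels themselves. The members nearest the limit had mean levels of 9.97%, 9.98% and 9.99%, and the nearest windows beyond it had 10.01%, 10.08% and 10.13%. The rule used the mean over both groups and not the difference between them. In all, 21444 tested windows lay below 10%, in 14200 runs, and the valleys held 10.1% of these windows. The other 13753 runs had 1 to 3 windows.

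Most valleys were close to the minimum length of the rule. Of the 447, 251 were 4 kb long, 102 were 5 kb, 48 were 6 kb and 19 were 7 kb. Lengths of 8 kb, 9 kb, 10 kb and 11 kb were found in 13, 10, 1 and 3 valleys. Together they held 110849 CpGs, at 13.2 to 104 CpGs per kb and a median of 51.7, where a tested window had a median of 12. Density fell from the middle outward. The central windows had a median of 55 CpGs, the outermost windows of the valleys 41, and the first windows outside 17.

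Chromosome 5 held 46 valleys, or 8.73 per 10000 tested windows, and chromosome 16 held 8, or 2.97 per 10000. Chromosomes 19, 8 and 11 followed chromosome 5 with 8.63, 7.72 and 7.47 per 10000. On chromosome 5, 15.1% of the windows below 10% lay in valleys, and on chromosome 16 6.57%. Some valleys were neighbours, since 25 pairs lay at most 3 windows apart and 12 of these were separated by 1 window. Such pairs would be a single longer valley if the windows between them had been lower or better covered, so the lengths depend on coverage too.

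Genes were placed in the valleys without converting coordinates. RefSeq promoters (GRCm38.p6), each the 250 bases before a gene's start and the 50 after it, were located on mm9 by the spacing of their CpGs. Of 15382 autosomal promoters with at least 8 CpGs, 15180 matched the CpG positions of their chromosome at exactly 1 place. In these, 99.8% of neighbouring promoters followed the RefSeq order. Promoters of 358 genes fell in 281 valleys, which is 62.9% of the valleys. A valley held 1 such gene in 206 cases, 2 genes in 69 and 3 in 6. Genes whose promoter has fewer CpGs were not placed, so a valley with no gene here may still hold one.

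The sequences below show what lies under these levels. They are the 250 bases upstream of gene starts, 5′ to 3′ on the gene's strand, with each CpG in capitals, and the coordinates are those of the whole 300 bp promoter on mm9. The first pair is from Lzts2, whose valley held promoters at both ends, with different changes in DKO. Gfi1, Macroh2a1 and Erf lie in valleys with large gains at an end, and Zswim6 and Cbfa2t3 lie in the CpG-densest and the CpG-poorest valley.
Lzts2, window 1 of its valley, chr19:45089416-45089715, plus strand: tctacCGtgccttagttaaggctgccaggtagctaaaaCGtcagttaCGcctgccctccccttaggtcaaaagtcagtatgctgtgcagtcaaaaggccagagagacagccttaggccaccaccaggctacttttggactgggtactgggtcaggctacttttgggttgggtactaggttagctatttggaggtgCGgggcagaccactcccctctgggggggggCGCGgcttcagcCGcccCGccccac
Lzts2, window 4 of its valley, chr19:45092375-45092674, plus strand: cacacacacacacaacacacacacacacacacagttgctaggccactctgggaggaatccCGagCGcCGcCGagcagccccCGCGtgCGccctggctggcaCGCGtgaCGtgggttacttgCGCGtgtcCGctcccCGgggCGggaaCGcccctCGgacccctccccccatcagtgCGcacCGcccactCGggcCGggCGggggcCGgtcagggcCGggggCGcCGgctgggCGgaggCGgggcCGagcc
Gfi1, window 3 of its valley, chr5:108154776-108155075, minus strand: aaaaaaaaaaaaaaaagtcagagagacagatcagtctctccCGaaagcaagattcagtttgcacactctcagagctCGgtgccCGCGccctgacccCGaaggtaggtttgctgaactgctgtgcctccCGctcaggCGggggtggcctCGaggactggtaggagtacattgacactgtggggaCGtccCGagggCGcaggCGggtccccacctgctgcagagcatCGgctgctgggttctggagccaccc
Macroh2a1, window 3 of its valley, chr13:56236862-56237161, minus strand: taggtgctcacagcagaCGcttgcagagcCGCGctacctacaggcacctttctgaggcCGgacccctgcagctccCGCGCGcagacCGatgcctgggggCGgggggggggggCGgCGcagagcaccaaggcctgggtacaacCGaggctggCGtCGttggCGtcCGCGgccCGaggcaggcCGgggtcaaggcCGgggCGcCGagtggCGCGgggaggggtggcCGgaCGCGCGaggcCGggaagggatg
Erf, window 3 of its valley, chr7:26035728-26036027, minus strand: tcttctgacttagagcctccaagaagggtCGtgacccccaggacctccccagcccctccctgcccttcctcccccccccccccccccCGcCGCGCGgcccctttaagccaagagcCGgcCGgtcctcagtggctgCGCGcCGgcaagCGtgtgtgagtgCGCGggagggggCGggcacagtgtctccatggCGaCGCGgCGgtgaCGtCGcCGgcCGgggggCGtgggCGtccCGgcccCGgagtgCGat
Zswim6, window 3 of its valley, chr13:108680209-108680508, minus strand: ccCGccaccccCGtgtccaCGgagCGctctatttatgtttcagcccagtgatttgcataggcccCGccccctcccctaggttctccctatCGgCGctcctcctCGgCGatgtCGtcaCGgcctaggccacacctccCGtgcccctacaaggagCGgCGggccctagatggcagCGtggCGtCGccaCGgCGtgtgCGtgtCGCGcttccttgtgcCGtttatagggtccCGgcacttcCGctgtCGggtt
Cbfa2t3, window 4 of its valley, chr8:125222960-125223259, minus strand: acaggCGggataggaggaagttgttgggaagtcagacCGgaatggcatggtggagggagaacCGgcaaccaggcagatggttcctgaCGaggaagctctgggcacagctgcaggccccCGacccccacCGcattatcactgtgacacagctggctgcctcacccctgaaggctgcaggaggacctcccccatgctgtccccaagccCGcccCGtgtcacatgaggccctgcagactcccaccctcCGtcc
The printed bases hold 8 and 29 CpGs for the Lzts2 pair, 13 for Gfi1, 29 for Macroh2a1, 27 for Erf, 26 for Zswim6 and 9 for Cbfa2t3. Promoters placed in valleys had a median of 22 CpGs in 300 bp, against 21 for all placed promoters and 7 for all RefSeq promoters, and placing itself required 8.

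Developmental regulators were among the genes in valleys. Of 74 homeobox and patterning genes with a placed promoter, 30 lay in valleys (40.5%), where it was 358 of all 13064 placed genes. Among them were Pax6, Nkx2-1, Otx2, Lhx2 and Dlx2, transcription factors that pattern the brain, eye or other organs. Their valleys had a median length of 6 kb, against 4 kb for all valleys with a placed gene. Of 68 other developmental factors, 20 were in valleys (29.4%), including Gata3, Sox4, Olig2, Twist1 and Klf4. Of 51 developmental signalling genes, 5 were: Fgf9, Fzd10, Wnt1, Wnt10b and Wnt11. Of 18 blood stem cell factors placed, 6 were, namely Bcl11a, Etv6, Gfi1, Mecom, Myb and Zfpm1.

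The middle of the valleys was slightly higher in DKO, at the low level that the rule fixed for both groups. The mean level of the central windows was 2.73%, 2.45% and 2.62% in the WT samples and 3.35%, 3.38% and 3.19% in the DKO samples. The groups did not overlap. The group means were 2.60% ± 0.140 and 3.31% ± 0.1002 (SD, n = 3), which is 0.707 points apart (SE 0.0994; p = 0.1 in an exact permutation test, two-sided here and below). This p is the smallest that 3 samples against 3 allow. Less each sample's mitochondrial level, the difference was 0.269 points.

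An edge was analysed where the outermost window of a valley lay beside a tested window at 10% or more. This held for 611 of the 894 valley ends. The other ends lay beside a window with too few reads (274), too few CpGs (8) or no CpG (1), and mark no measured boundary. Both ends were boundaries in 221 valleys, 1 end in 169 and neither in 57. The edge windows had levels of 3.85%, 3.92% and 3.88% in WT and 4.90%, 4.96% and 4.50% in DKO. The groups did not overlap. The means were 3.88% ± 0.0357 and 4.79% ± 0.251 (SD, n = 3), a difference of 0.910 points (SE 0.146; exact permutation p = 0.1). Less the mitochondrial level it was 0.472 points. With valleys chosen on the WT mean alone it was 1.87 points, and on the DKO mean alone 0.259 points with overlapping groups (exact permutation p = 0.2, n = 3 each). Edges of lower coordinate (302 edges) had a difference of 0.832 points, and those of higher coordinate (309 edges) one of 0.986 points. The 283 ends with no measured boundary went from 4.48% ± 0.237 to 5.44% ± 0.476 (SD, n = 3), a difference of 0.957 points.

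In points, the step outside changed more. The first window beyond the edge had 32.8%, 32.4% and 32.8% in WT and 35.7%, 35.7% and 35.3% in DKO. All DKO samples were again above all WT samples, with a difference of 2.97 points (SE 0.184; exact permutation p = 0.1, n = 3 each). In the second window outside (400 edges where it was tested) the level rose from 49.9% ± 0.479 to 53.4% ± 0.274 and in the third (287 edges) from 47.6% ± 0.354 to 51.1% ± 0.471 (SD, n = 3), both with p = 0.1 by the exact permutation test. The differences between groups were thus 0.707 points at the centre, 0.910 at the edge and 2.97 to 3.54 points outside. The gap between edge and first outside window widened by 2.06 points in DKO (SE 0.157; exact permutation p = 0.1, n = 3 each). The limit on the mean of all samples also sorts windows into edge and outside, and so limits the gain at an edge. With valleys chosen on the WT mean alone, edge and first outside window differed by 1.87 and 2.90 points. On the DKO mean alone they differed by 0.259 and 3.33 points. The outside window changed more in each case. The size of the widening depends on the rule, and nothing is read from it.

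**Figure D1:**
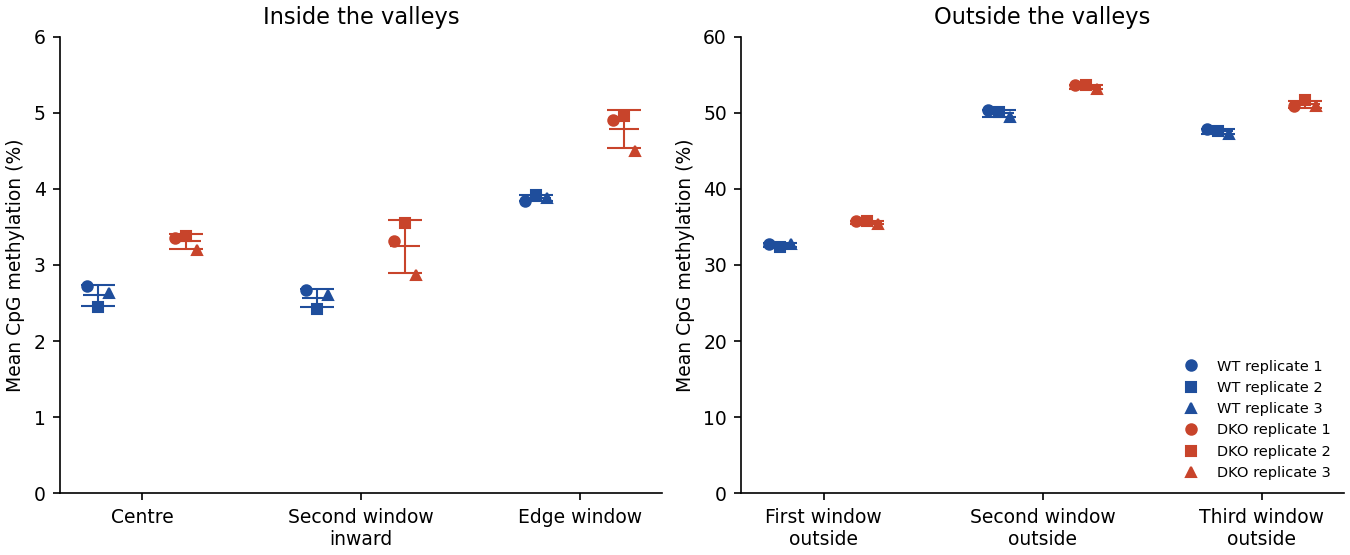
Mean CpG methylation in percent (y axes, different scales) by position inside and outside the valleys, with one point per sample and the group mean ± SD (n = 3). In each of the 6 positions the DKO samples lie above the WT samples, by 0.707 points at the centre and by 2.97 points in the first window outside.

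The edge itself did not separate clearly from the centre. Within each sample, the edge window exceeded the centre of the same valley by 1.16, 1.46 and 1.26 points in WT and by 1.60, 1.59 and 1.34 points in DKO. The third DKO value lay inside the WT range. The difference of 0.216 points (SE 0.123; exact permutation p = 0.2, n = 3 each) was not larger than the spread between samples. Its sign depended on which valleys were taken. It was -0.157 points over valleys of 6 or more windows, -0.0815 points over valleys with at least 40 reads per window and sample, and 0.451 points with a limit of 15% in place of 10%. A level shift shared by centre and edge, as incomplete conversion would give, drops out of this quantity.

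The boundary was also profiled at a finer scale. CpGs of all 611 edges were pooled in 250 bp bins by their distance from the boundary. Going outward, the profile reached 25% at 345, 353 and 341 bp outside the valley in WT and at 275, 291 and 286 bp in DKO. The means of 346 bp ± 6.21 and 284 bp ± 7.97 (SD, n = 3) differed by -62.0 bp (SE 5.83; exact permutation p = 0.1). The profile thus reached 25% closer to the valley in every DKO sample. A rise in level alone also moves this point inward, so a shift of the boundary cannot be told apart from it here. The mitochondrial level was not subtracted from the profile. The point of 10% moved from -1.22 bp ± 4.23 to -40.6 bp ± 8.87, which is inside the valley. The difference between groups was 1.38 points in the last 250 bp inside the boundary and 1.69 points in the first 250 bp outside. It was 3.53 points from 250 to 500 bp outside, the highest value of the profile, and 2.95, 2.54, 2.16, 3.06 and 2.26 points in the next 5 bins, centred 625 to 1625 bp outside. None of these outside bins had overlapping groups (exact permutation p = 0.1, n = 3 each). It was between 0.365 and 0.744 points in the bins more than 500 bp inside. Farther out, from 1875 bp, the groups overlapped in 11 of the 13 bins, and did not in those centred at 3375 and 4875 bp, where the difference was 3.01 and 2.62 points. Pooled bins weight CpG-dense edges more than the window means do.

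**Figure D2:**
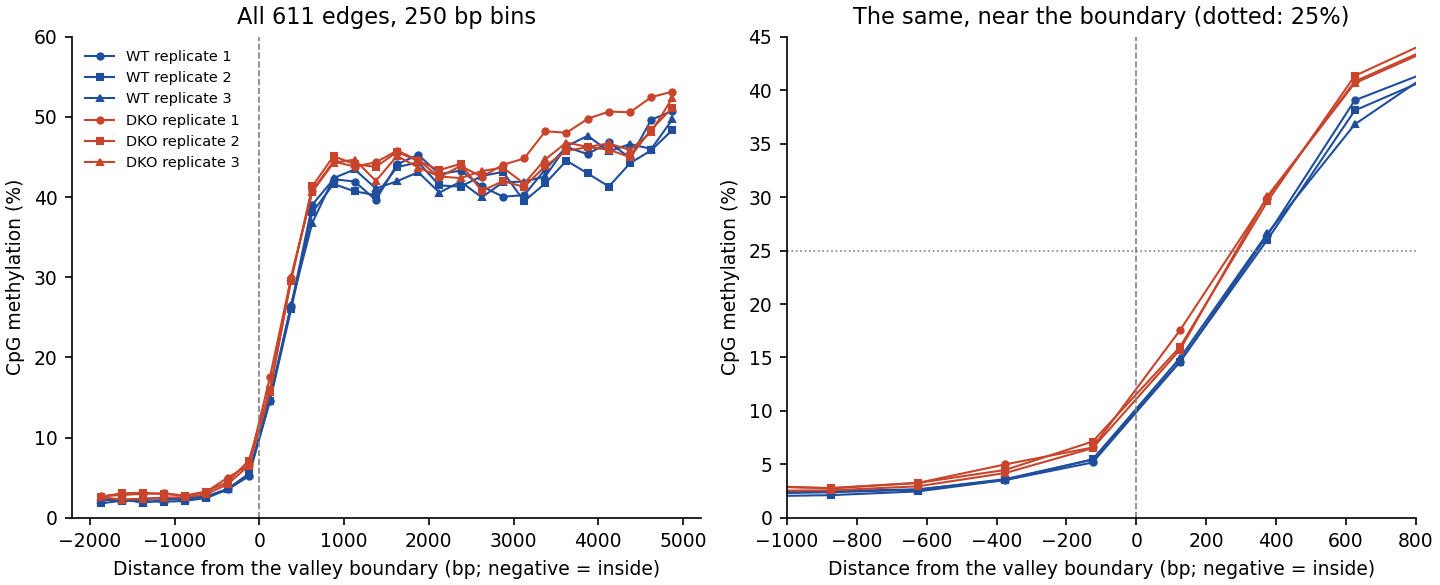
CpG methylation in percent (y axis) against the distance from the valley boundary in bp (x axis, negative inside), pooled over 611 edges in 250 bp bins, one line per sample. The right panel enlarges the boundary, where the DKO lines cross 25% at 275 to 291 bp and the WT lines at 341 to 353 bp.

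The size of the difference varied with the CpG density of the edge, but the groups overlapped in that comparison. Edge windows with up to 20 CpGs (81 edges) went from 5.48% ± 0.661 in WT to 6.93% ± 0.670 in DKO (SD, n = 3), a difference of 1.45 points with overlapping groups (exact permutation p = 0.2). The differences were 1.09 points at 21 to 40 CpGs (222 edges) and 0.637 points above 40 (308 edges), with p = 0.1 by exact permutation in both. The difference between the poorest and the densest class changed by 0.813 points (SE 0.643; exact permutation p = 0.2, n = 3 each). Central windows showed 0.0508 points at up to 20 CpGs (22 valleys, exact permutation p = 1), 1.13 points at 21 to 40 (103 valleys) and 0.617 points above 40 (322 valleys).

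Longer valleys had higher levels in the middle and lower levels outside. In runs of 4, 5 and 6 or more windows the WT centre was at 2.26%, 2.79% and 3.33% and the WT first outside window at 34.2%, 32.5% and 28.8%. The DKO minus WT difference of the first outside window was 3.29, 2.93 and 2.22 points, and that of the edge 1.03, 0.910 and 0.619 points. The last of these had overlapping groups (exact permutation p = 0.2, n = 3 each). Shorter unmethylated runs of 1 to 3 windows changed by 0.919 points in their outermost windows, and the valleys' change differed from theirs by 0.00916 points (SE 0.172; exact permutation p = 1, n = 3 each). Their first outside window was higher, at 48.2% in WT, and changed by 3.63 points. That is 0.656 points more than beside the valleys (SE 0.175; exact permutation p = 0.1). The change of the valley edges thus differed from that of short runs by less than its SE.

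Erosion of single edges was scored where the outermost window was at least 5 points higher in DKO and all DKO samples lay above all WT samples. By this rule 29 of 611 edges eroded inward, or 4.75%, and 5 edges met the mirror rule (0.818%). Among all tested windows below 10%, 3.6% met the same rule and 0.625% its mirror, and among all tested windows 7.82% and 2.86%. The share of eroding edges was therefore near that of other unmethylated windows. Inside the valleys, 20 of 1278 windows met the rule (1.56%) and 6 its mirror. Edge windows held fewer CpGs than inner ones, and the part of this in the gap between 4.75% and 1.56% was not tested. A gap between groups of any size, with all DKO samples above all WT samples, was seen in 11.5% of edges and 9.78% of inner windows. The background was 10.7% of low windows and 9.05% of all windows. The reverse order was seen in 1.96% of edges and 1.56% of inner windows, against 1.92% of low windows and 3.75% of all windows.

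Eroding edges were scattered. They belonged to 29 valleys on 14 chromosomes, and 0 valleys eroded at both ends. The median of their edge windows was 34 CpGs. Across the valleys with both edges measured, the differences at the 2 ends had a Pearson r of -0.0990. This is a description over 221 valleys of the same 6 libraries. The edge difference had an r of 0.0324 with the difference at the centre of the same valley and of 0.162 with that of the first window outside, both over 611 edges. In all, 63.7% of edges had a higher DKO mean, as did 63.8% of all low windows.

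**Figure D3:**
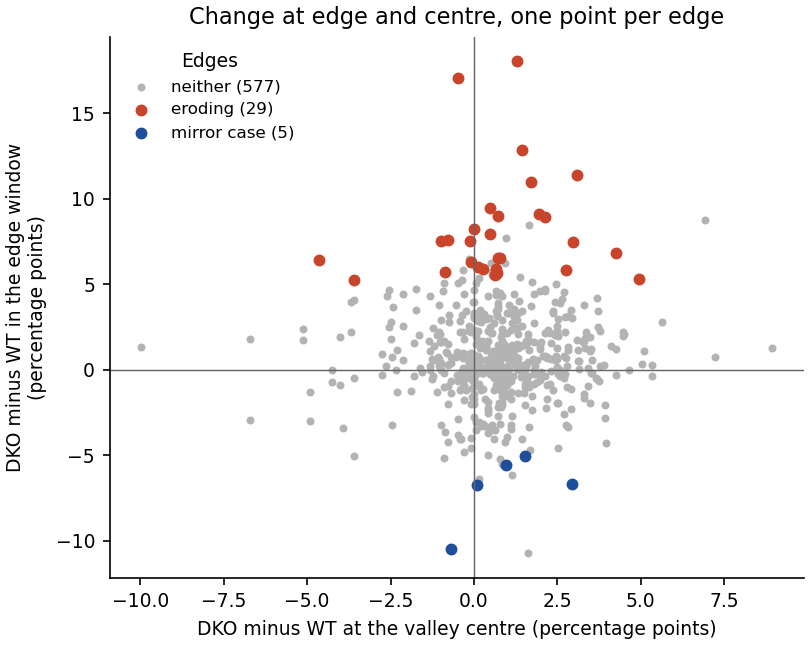
DKO minus WT difference in the edge window (y axis) against that at the valley centre (x axis), both in percentage points, one point per edge (611). The 29 eroding edges, in red, spread over positive and negative centre differences, and the 5 mirror cases are in blue.

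The edges with the greatest gains are given next. They were chosen by this difference, so it is described and not tested. The top edge lay on chromosome 8, at chr8:97504001-97505000, in a window of 7 CpGs. Its levels were 0.00%, 2.94% and 0.00% in WT and 6.12%, 37.3% and 13.6% in DKO, a difference of 18.02 points that was 8.90 points without DKO replicate 2. The second lay at chr2:103812001-103813000, with 8 CpGs and levels of 2.63%, 0.00% and 0.00% against 38.0%, 12.9% and 2.86%. DKO replicate 3 there was close to the highest WT sample, and the difference of 17.1 points was 7.02 points without DKO replicate 1. The gain in both rested mainly on single samples.

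A further large gain was seen at the start of an 11 kb valley on chromosome 15 (chr15:35222001-35233000). Its first window had 0.00%, 4.00% and 6.17% in WT and 16.2%, 15.2% and 17.2% in DKO. With equal weights on the CpGs covered in every sample, the levels were 0.00%, 13.3% and 8.44% in WT and 16.7%, 6.17% and 16.9% in DKO. The groups overlapped by that measure, and the difference of 12.8 points was 5.98 points. A 4 kb valley on chromosome 11 (chr11:72300001-72304000) had 0.00%, 1.85% and 2.22% against 11.6%, 16.7% and 10.0% in its first window. At chr1:75442001-75448000 and chr17:44871001-44875000 the last window eroded, by 9.09 and 8.22 points. The first window outside the chromosome 15 edge was lower in DKO, at 77.2% in WT and 69.2% in DKO. Outside the edges on chromosomes 11, 1 and 17 it was at 46.2%, 44.8% and 14.7% in WT and 64.5%, 56.5% and 23.3% in DKO.

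Of the 10 edges with the largest gains, 4 lay in valleys with a placed gene. In the valley of Macroh2a1, which encodes the histone variant macroH2A1, the first window (chr13:56234001-56235000) had 0.00%, 1.90% and 1.14% in WT and 7.94%, 12.2% and 15.9% in DKO. Its first outside window was at 33.2% and 33.0%. The next one out, chr13:56232001-56233000, had 83.3%, 57.7% and 73.5% in WT and 84.8%, 84.1% and 96.2% in DKO (adjusted p = 0.466, quasi-binomial test). Mtcl1, a gene of a microtubule-binding protein, had 4.50%, 2.60% and 2.80% against 19.1%, 10.4% and 8.67% in its edge window at chr17:66797001-66798000. That difference of 9.43 points was 2.94 points with equal CpG weights and 6.23 points without DKO replicate 1. The first window outside was at 79.9% in WT and 75.6% in DKO.

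Gfi1 encodes a transcriptional repressor needed by blood stem cells and in granulocyte development. Its valley, chr5:108152001-108156000, was the one of the 6 valleys of blood stem cell factors with an eroding edge. The edge window had 3.09%, 1.05% and 4.38% in WT and 10.9%, 15.96% and 8.54% in DKO, with 160 to 422 reads per sample. All 3 DKO samples were above the WT samples, and equal CpG weights gave a difference of 12.6 points in place of 8.96. The first outside window went from 27.3% ± 13.3 to 66.5% ± 16.003 (SD, n = 3; adjusted p = 0.0475 in the moderated quasi-binomial test). The 3 other windows of the valley had group means of 0.00% to 0.379% in WT and 0.209% to 0.915% in DKO. In the second window the DKO samples, at 0.257%, 1.90% and 0.481%, all lay above the WT samples, which were at 0.00%. Within the valley, a gain of at least 5 points was thus seen in the first 1 kb alone. That end lies downstream of the gene's start, since Gfi1 lies on the minus strand.

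Lzts2, a leucine zipper gene known as a putative tumour suppressor, was the one of these 4 with a gene start inside the eroding window. Its edge window (chr19:45089001-45090000) had 0.00%, 3.57% and 0.00% in WT and 7.48%, 15.4% and 7.35% in DKO. The first window outside that edge was at 30.2% in WT and 47.8% in DKO. The promoter in the edge window, the first of the printed Lzts2 pair, had 0.00% in all 3 WT samples and 10.7%, 16.7% and 14.3% in the DKO samples. It was covered by 13 to 56 reads per sample. The second Lzts2 promoter, in the last window of the same valley, was at 0.00% in WT and at 0.00%, 1.90% and 0.00% in DKO. Of the printed pair, the gain was thus at the start with fewer CpGs.

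The remaining eroding edges gained 5.25 to 7.95 points. They included edges of valleys at Mycn, a growth-promoting transcription factor, Gadd45g, a stress-response gene, Bhlhe41, a circadian repressor, Gsk3b, a kinase, and Gad1, an enzyme of GABA synthesis. At Mycn the DKO samples had 16.3%, 6.70% and 3.30% and the WT samples 1.98%, 1.72% and 0.00%. One edge met the rule over 2 successive windows, in the valley at chr11:95866001-95870000. Its first and second windows had 1.66% and 0.892% in WT and 8.47% and 8.60% in DKO. This valley as a whole went from 1.93% ± 0.671 to 6.20% ± 1.06 (SD, n = 3). The largest mirror case was chr1:57038001-57039000, with 3.85%, 20.0% and 13.6% in WT and 3.61%, 2.47% and 0.00% in DKO, from 26 to 83 reads per sample. Its WT samples spread widely.

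**Figure D4:**
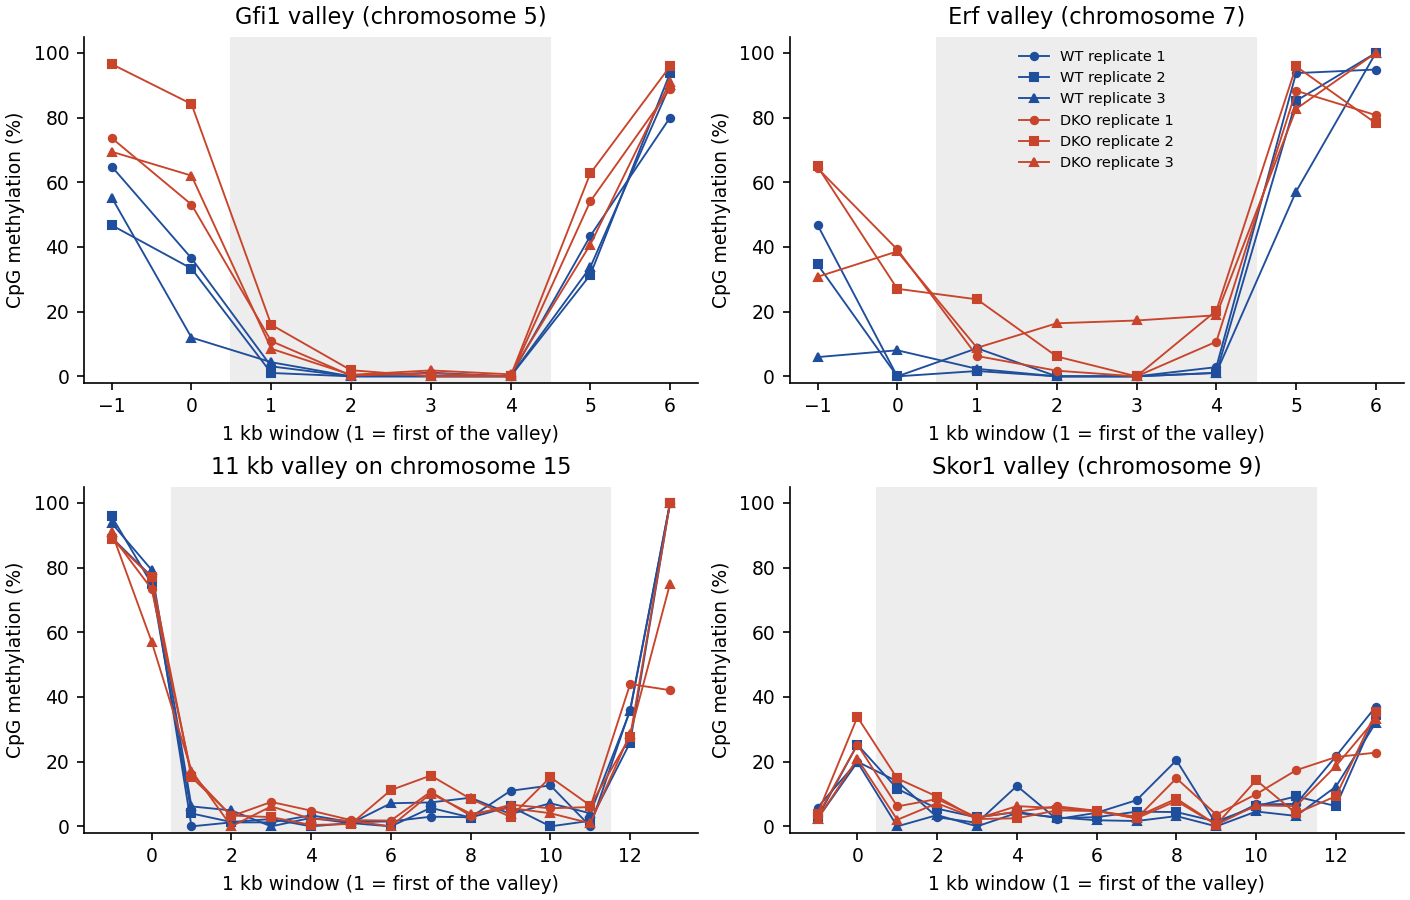
CpG methylation in percent (y axis) of successive 1 kb windows (x axis, numbered from the first window of the valley) in 4 valleys, one line per sample, with the valley shaded. Outside windows are drawn at any depth. At Gfi1 the DKO samples are higher in the first of the 4 shaded windows and in the window just below it, while at Erf all 4 shaded windows are at 15% or more in at least 1 DKO sample.

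Few windows passed the test on their own. Of the 2172 windows in valleys 2 were called higher in DKO and 0 lower (moderated quasi-binomial test, a difference of at least 10 points and an adjusted p under 0.05), or 0.0921% against a background of 0.49% of all tested windows and 0.131% of all tested windows below 10%. The background of windows called lower was 0.00723%. Because a member's mean over the samples lies under 10%, a difference of 10 points is hard to reach by the rule itself, and nothing is read from this count. By the adjusted p alone, 9 windows in valleys were higher (0.414%) and 2 lower, where it was 0.452% and 0.229% of all tested windows below 10%. In all, 320 windows in valleys had an unadjusted p under 0.05, of which 246 were higher. Among the 611 edge windows 0 were called, 1 was higher by the adjusted p alone (at Gfi1, adjusted p = 0.0124) and 1 lower, and 86 had an unadjusted p under 0.05 (14.1%), 67 of them higher. An unadjusted p under 0.05 was found in 18.3% of all tested windows below 10% and in 9.27% of all tested windows. Among the 602 distinct first windows outside, 8 were called higher (1.33%) and 0 lower. With limma on log2 ratios 0 of these 10 windows were called. Of the 10, 0 were still called without DKO replicate 2, 1 without WT replicate 2, and 2 without each of the other samples. Over all tested windows, the calls went from 3854 to between 29 and 790 when a sample was left out.

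One of the called windows in valleys was in the valley of Erf, which encodes a repressor of the ETS family. At chr7:26036001-26037000 it had 2.86%, 1.04% and 1.11% in WT and 10.7%, 20.3% and 18.9% in DKO (adjusted p = 0.0278, quasi-binomial test). The first window outside its other end, chr7:26032001-26033000, was also called, with 0.00%, 0.00% and 8.06% against 39.2%, 27.1% and 38.6% (adjusted p = 0.0140). Over the whole valley (chr7:26033001-26037000) the level was 2.33%, 0.351% and 0.924% in WT and 2.737%, 8.38% and 15.5% in DKO. The difference of 7.67 points was the largest of the 447 valleys, but the DKO samples ranged widely. In the third window, where the Erf promoter printed above lies, DKO replicate 3 had 17.3% and the other 5 samples 0.00%. The promoter itself was at 0.00% in all 6 samples, with as few as 1 read in one of them.

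The other called window, chr11:18913001-18914000, was the first of a 4 kb valley with no placed gene. It had 0.00%, 2.01% and 1.34% in WT and 19.5%, 13.1% and 17.0% in DKO, from 94 to 149 reads per sample (adjusted p = 0.00460). The window outside it had too few reads, so this end was not counted as an edge.

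Called windows just outside valleys lay beside genes of several kinds. The lowest adjusted p was at Dusp6, a phosphatase that dampens ERK signalling, where chr10:98728001-98729000 had 30.9%, 37.8% and 31.3% in WT and 63.1%, 80.0% and 72.9% in DKO (adjusted p = 0.000690). At Spry2, an inhibitor of receptor tyrosine kinase signalling, chr14:106293001-106294000 had 11.4%, 3.33% and 8.43% against 37.6%, 38.4% and 30.1% (adjusted p = 0.000910). In both, the WT and DKO samples were far apart. The edge windows inside had means of 2.00% (WT) and 6.28% (DKO) at Dusp6 and of 3.27% and 3.05% at Spry2. The Msi2 valley, at the gene of an RNA-binding protein known in blood stem cells, had a called outside window too, chr11:88576001-88577000, at 21.04% ± 10.6 and 57.6% ± 14.7 (SD, n = 3). The others were at the valleys of Gfi1, Erf, Git2 with Ankrd13a, Mlec, and one on chromosome 8 with no placed gene. At the Git2 and Mlec valleys the edge windows were at 0.491% and 0.00% in WT and at 0.00% and 0.820% in DKO. The gain there ended at the border.

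Whole valleys were on average slightly higher in DKO. Of 447 valleys 348 (77.9%) had a higher DKO mean, in 85 (19.0%) the DKO samples were all above the WT samples, and in 5 all below. The differences ran from -3.13 to 7.67 points, with a median of 0.723. The mitochondrial difference between the groups, 0.437 points, was not subtracted from them. The valley that fell most was chr4:133307001-133311000, with 4.86%, 3.55% and 5.13% in WT and 1.10%, 2.17% and 0.904% in DKO. The background shares given above are of single windows, and none was computed for regions of the size of a valley. Nothing is therefore read from the counts of valleys.

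The 6 valleys of blood stem cell factors are given one by one. Mecom, a zinc finger factor of stem cell maintenance, had 0.00%, 1.28% and 0.477% in WT and 2.84%, 2.59% and 3.42% in DKO over its valley. Etv6, an ETS-family repressor needed for marrow stem cells, had 0.140%, 0.00% and 0.00% against 1.36%, 1.60% and 1.52%. At Mecom, Etv6 and Gfi1 the DKO samples all lay above the WT samples, as they did in 19.0% of all 447 valleys. Nothing is read from this about stem cell factors. At Myb, which drives progenitor growth, the means were 1.37% and 1.49%. They were 0.273% and 0.279% at Zfpm1, a GATA cofactor. Bcl11a, a repressor of fetal globin, had a 9 kb valley with means of 0.533% and 1.31%. The mitochondrial difference between the groups, 0.437 points, was larger than the differences at Myb and Zfpm1.

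No edge at a developmental regulator of the lists met the erosion rule. Homeobox and patterning genes had 31 valleys with 49 measured edges, of which 0 eroded and 0 met the mirror rule. Other developmental factors had 26 edges, also with 0 of either kind. Edges of all valleys with a placed gene numbered 397, of which 14 eroded and 1 was a mirror case. Whether the lists differ in this from the other valleys was not tested. The edge level of the homeobox valleys went from 5.39% ± 0.330 in WT to 5.76% ± 0.173 in DKO (SD, n = 3), a difference of 0.373 points. Over all valleys with a placed gene it was 0.781 points, and the difference between these was not tested.

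The 3 longest valleys, of 11 kb, had overlapping groups. That of Skor1, a corepressor gene of the nervous system, was chr9:62988001-62999000, which went from 3.92% ± 1.56 to 5.28% ± 0.860 (SD, n = 3). The valley at chr5:120880001-120891000 had 4.46% ± 0.962 and 4.68% ± 0.399, and the one on chromosome 15 described above 3.27% ± 1.21 and 4.78% ± 0.627.

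The densest and the poorest valley both changed by less than 1 point. The densest, at Zswim6 (chr13:108678001-108682000), a zinc finger gene, had 104 CpGs per kb and levels of 0.273% and 0.865%. The poorest, at Cbfa2t3 (chr8:125220001-125225000), a corepressor of blood progenitors, had 13.2 CpGs per kb and 3.11% ± 2.42 and 3.37% ± 1.80 (SD, n = 3). Its samples overlapped. Both promoters printed above were unmethylated in DKO, at 0.00% in all 3 samples. Over the 293 promoters in valleys with at least 20 reads in every sample, the level was 1.31% ± 0.274 (SD) in WT and 1.51% ± 0.144 in DKO, a difference of 0.200 points (SE 0.178; exact permutation p = 0.3, n = 3 each). In 7 of them (2.39%) the DKO samples were all higher than the WT samples and in 2 all lower. The same was seen in 3.45% and 0.56% of 11248 placed promoters with as many reads.

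Since the limit of 10% was set on all samples, valleys were also drawn from each group's own mean and followed in the other group, a comparison added after the data were seen. The WT mean gave 490 valleys and the DKO mean 398. Of the WT valleys, 57.1% were whole in DKO and 10.2% were broken inside. Another 32.4% had lost windows at 1 or both ends to a level of 10% or more. Of the DKO valleys, 81.9% were whole in WT, 12.8% were trimmed at an end and 5.28% were broken inside. Of the end windows of WT valleys, 18.8% were at 10% or more in DKO. In 6.73% of all these end windows the groups did not overlap as well. The reverse shares were 7.16% and 1.51%. Of the inner windows, 5.89% were lost in DKO and 2.38% in the reverse direction. Both directions lose windows by the choice itself, and only the gap between the directions bears on the groups. The gap was seen at ends and inside alike. The same shares were not computed for short runs or for all low windows, so the gap is not shown to be particular to valleys. The mitochondrial level was not subtracted here. With reads thinned to equal numbers in every window, the end shares were 19.1% and 8.04% and the inner shares 6.73% and 3.20%.

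**Figure D5:**
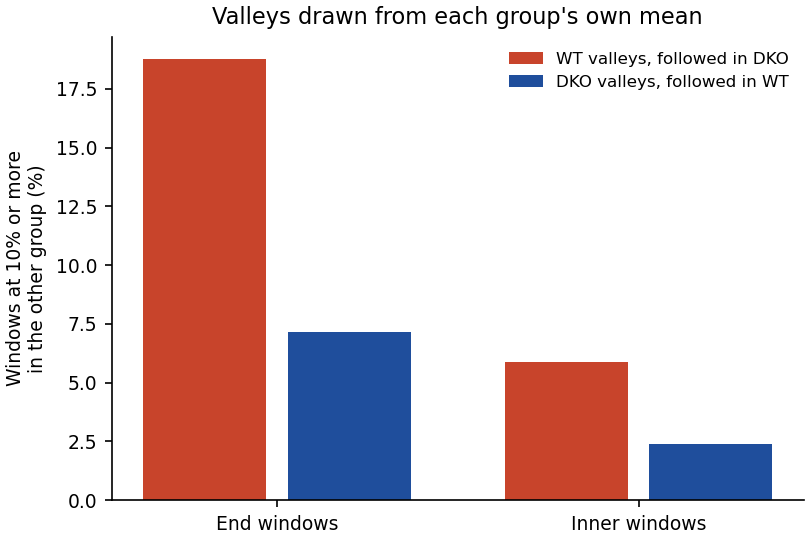
Share of windows (y axis, percent) at 10% or more in the other group, for end and inner windows of valleys drawn from the WT mean (490 valleys, red) or from the DKO mean (398 valleys, blue). End windows are lost in 18.8% of WT-drawn and 7.16% of DKO-drawn cases.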

How the data were processed

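The authors deposited 1 table with, for each CpG and sample, counts of total and of methylated reads, without normalisation or pooling. The submitters' processing notes name BSMAP 2.74 and mm9. How reads were filtered and whether duplicates were removed is not given in the sources used here. Per the labels' protocols, DNA was sheared, ligated to adapters, bisulfite-treated and amplified. Duplicates and reads that span several CpGs raise the counting error beyond what read numbers imply. There were 0 columns of other samples.

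Reads were summed over 1 kb windows, and a level is methylated over all reads in percent. Values given once per sample were compared by exact permutation tests (two-sided). The 774732 autosomal windows with enough CpGs and reads were fitted with a quasi-binomial logistic model whose dispersion was moderated across windows by limma (version 3.58.1 in R 4.3.3), with a floor of 1, with Benjamini-Hochberg adjustment over all windows. Windows were called at a difference of at least 10 points with an adjusted p under 0.05. The test was also run on simulated counts, with only mild spread between samples beyond counting error. That run does not cover larger differences between samples, and its outcome is not given here. Other values were computed with Python 3.11.15 and numpy 2.4.6, and exact tests with scipy 1.17.1.

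The edges and valleys named were the 10 eroding edges with the largest difference, valleys that eroded over 2 or more windows or at both ends, the 3 longest, the densest and the poorest valley, the largest mirror case, and windows that passed the test. Other valleys were named after their values were seen. Members and gene lists were chosen with earlier results of these data known. Promoters of at least 8 CpGs were placed where at least 85% of their CpGs matched. Read counts of replicates in 1 Mb bins were compared, with a chi-square per degree of freedom of 11.8 to 117, so no pair agreed within sampling noise. The values of 117 and 81.3 were of pairs with DKO replicate 2, and the other pairs had 11.8 to 23.0. Alternatives covered the limits on level, length and reads, the choice of valleys, CpG weights, the mitochondrial level, other tests and each sample left out.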

Additional observations from a re-analysis of the deposited data

How the results depend on the processing

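Differences are DKO minus WT, in points, and the settings with equal reads and without the 10 most eroded edges were chosen after the data were seen. The centre (0.707 points) differed by 0.442 with a limit of 5%, 0.993 with valleys chosen on the WT mean alone, 0.494 on the DKO mean alone and 0.269 less the mitochondrial level. In the same order the edge (0.910) differed by 0.502, 1.87, 0.259 and 0.472, and the first window outside (2.97) by 3.69, 2.90, 3.33 and 2.53. A limit of 15% gave 1.27 at the edge and 3.40 outside, valleys of 6 or more windows 0.619 and 2.22, at least 40 reads 0.679 and 2.71, and equal CpG weights 3.56 outside. All of these kept the direction, but the groups overlapped at the edge on the DKO mean alone and with 6 or more windows (exact permutation p = 0.2, n = 3). With valleys chosen on 2 replicates of each group and measured in the third, centre, edge and outside window differed by 0.634, 0.845 and 3.06. Without the 10 most eroded edges the edge differed by 0.734.

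Edge minus centre (0.216) did not keep its direction. It was 0.0312 with a limit of 5%, 0.451 with 15%, -0.157 over 6 or more windows, -0.0815 with 40 reads, 0.793 on the WT mean and -0.245 on the DKO mean. The cause was not tested. Choosing on a group's own mean favours windows that are low in that group by counting error. The interpolated boundary shift (-62.0 bp) was -39.3 bp at 10% and -69.7 bp for 6 or more windows. At 50% the shift had no value, because 2 samples did not reach that level within 5000 bp.

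Against 10 windows called in and beside the valleys, limma on log2 ratios gave 0 (0 of all windows), Fisher's exact test on pooled reads 98 (3.53%, against 6.46% of all windows), and minima of 10 and 40 reads gave 2 and 2 (0.0721% and 0.0861%, against 0.0222% and 0.113%). Leaving out a sample gave 0 to 3 (0% to 0.108%, against 0.00374% to 0.102% of all windows), one of them lower without WT replicate 2. Between 315 and 408 windows then had an unadjusted p under 0.05. Against 29 eroding edges there were 54 with 3 points, 5 with 10 points, 9 with 40 reads (of 281 edges) and 6 over 6 or more windows (of 134), with 10, 1, 2 and 3 mirror cases. The first 3 are 8.84%, 0.818% and 3.20% of edges, against 6.41%, 0.695% and 3.13% of all windows below 10%. Leaving out a sample gave 37 to 43 (6.06% to 7.04%, against 5.06% to 5.82% of low windows), since fewer samples have to be apart, and 3 to 17 mirror cases, the most without WT replicate 2. Leaving out a sample gave differences of 0.632 to 0.770 at the centre, 0.823 to 1.05 at the edge, 2.83 to 3.09 outside and 0.149 to 0.302 for edge minus centre, and boundary shifts of -64.7 to -57.5 bp.

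The numbers 1 to 3 in the labels pair no samples by source, and deviations of same-numbered samples had a correlation of 0.00332 to 0.00359. With the replicate block, the sign-flip test of 3 pairs left the values 0.707, 0.910, 2.97, 0.216 and -62.0 bp as they were, with p = 0.25 (exact), the smallest it allows. The block in the quasi-binomial model gave 0 calls in and beside the valleys (286 windows there at an unadjusted p under 0.05). It also gave 0 calls among all 774732 tested windows, so nothing is read from this about the valleys. In a window with 20 reads, 1 read is worth 5 points.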

Other observations

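The side of a valley relative to its gene was examined after the data were seen. Among the 211 valleys whose placed genes all lay on 1 strand, the first window outside on the upstream side (151 edges) went from 36.9% ± 0.729 in WT to 39.0% ± 0.573 in DKO (SD, n = 3). On the downstream side, toward the gene body (147 edges), it went from 31.8% ± 0.923 to 36.0% ± 0.407. The change was larger downstream by 2.09 points (SE 0.708; exact permutation p = 0.1, n = 3 each, the smallest possible). The WT level outside also differed between the sides. The edge windows changed by 0.603 points upstream and 0.988 points downstream, and this difference of 0.385 points had overlapping groups (SE 0.273; exact permutation p = 0.3, n = 3 each).

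Some windows just outside a valley would belong to it by the WT mean. Of the 602 first windows outside, 61 (10.1%) had a WT mean below 10% and a DKO mean of 10% or more. In 16 of these (2.66% of the 602) the samples did not overlap. The reverse was seen in 21 windows (3.49%), 4 of them without overlap (0.664%). Beside unmethylated runs of 1 to 3 windows the same was seen in 4.40% and 1.70% of 19666 first windows outside, and in 0.290% and 0.0811% of all tested windows. Without overlap, these shares were 1.53% and 0.325% beside the short runs, and 0.126% and 0.0165% of all tested windows. Beside the windows at Erf and Spry2, these 16 included the lower side of the Sox4 valley, chr13:29040001-29041000, with 10.0%, 5.68% and 4.35% in WT and 17.1%, 18.3% and 21.3% in DKO. Sox4 is a transcription factor of progenitor cells. At Sh2b3, an adaptor that restrains cytokine signalling in blood stem cells, chr5:122284001-122285000 had 3.92%, 1.22% and 3.23% in WT and 15.4%, 18.8% and 19.6% in DKO. The lower side of the Nkx6-1 valley, a homeobox gene, had 8.22%, 10.2% and 6.25% against 17.7%, 15.8% and 16.9%. These windows were picked for this difference, which is therefore described and not tested.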
